A study of Mus musculus with 8 samples.

Results

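The regions described here are 100-kb windows of the mouse X chromosome that already carried H3K27me3 in Smchd1 del/fl neural stem cells and that overlap at least 1 annotated protein-coding gene. Windows were cut from position 1 of X (mm10), and a window was taken where peaks of the mark covered at least 1% of it in either del/fl library. Of 1709 X windows, 778 met both conditions, out of 26321 windows on chromosomes 1 to 19 and X. Because the windows were chosen by their del/fl cover, the cover of the del/fl libraries and the difference from them are given as descriptions. Calls of limma, a test per window, are counted for that difference, and nothing is read from them. Contrasts with gene-free windows and between classes of windows, by gene number or start site, are also descriptions with no test. The split of a window into gene bodies and other bases was not used by the rule and is tested, although the choice on del/fl cover still enters its del/fl side.

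The del/del group is 2 libraries of female neural stem cells in which both alleles of Smchd1 were deleted, after transduction with the retrovirus MSCV-Cre-puro and puromycin selection. The del/fl group is 2 libraries of untransduced cells that kept 1 conditional allele beside 1 deleted one. Both groups derive from lines made from del/fl E14.5 embryos of a C57BL/6, 129 and Castaneus mix. All carry a maternal 129 X with the deltaA deletion of Xist and a paternal Castaneus X with intact Xist. Selection began 24 hours after transduction and the harvest followed at 7 days, so deletion cannot be told apart from transduction and selection. Each line was split into a transduced and an untransduced share, so libraries of both genotypes may come from the same line, and which do is not stated in the sources used here. Nothing states that the 2 libraries of a genotype came from separate embryos, so their spread may be technical.

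H3K27me3 is trimethylation of lysine 27 of histone H3. Polycomb repressive complex 2 writes it, and on the inactive X it spreads over silenced genes and the sequence between them once Xist RNA has coated the chromosome. Smchd1 is a chromatin protein that binds the inactive X late in this process and is needed to keep many of its genes silent. Genes that escape inactivation stay transcribed from the inactive X and usually lack the mark. The peak lists join the reads of both X chromosomes. Cover is the percent of a window's bases inside peaks, so more cells with the mark and more of the mark in each cell cannot be told apart.

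The peak caller used 14064030 and 12819919 reads for del/del, against 13288499 and 11793402 for del/fl, and listed 32971 and 39982 peaks in del/del cells, against 36934 and 45566 in del/fl cells. Hoxb1, Hoxc10 and Hoxd13, developmental genes that Polycomb covers in most tissues, were 100% covered in all 4 libraries. Of 8 neural stem cell marker genes, 7 (Sox2, Nes and Vim among them) had 0% cover in every library, and the transcription factor gene Pax6 had 3.05% and 5.13% in del/del cells, against 2.95% and 7.00% in del/fl cells. Of 6 markers of blood, endothelial and mesenchymal cells, none passed 8.10% in any library.

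The promoters of 6 genes from the member windows are shown because they span the range of outcomes at gene starts. Each runs from 250 bases before to 50 bases after a RefSeq start site (GRCm38.p6, the same assembly as mm10), on the strand of the gene, with each CG dinucleotide in capitals. CG reads the same on both strands and its matches cannot overlap. Of the 32851 promoters of this length in the RefSeq table, 94.6% hold at least 1 CG and 43.5% hold 10 or more. Kdm6a, a histone demethylase gene, and Eif2s3x, a translation initiation factor gene, escape inactivation and had no peak within 2.5 kb of their start in any library. The starts of Ndufb11, whose protein belongs to complex I of mitochondria, and Syp, the synaptophysin gene of synaptic vesicles, had peaks in each del/del library but in no del/fl library. The starts of Cnksr2, a neuronal scaffold protein gene, and Slc9a7, an ion exchanger gene of the Golgi, lie in the windows with the largest differences and had peaks in all 4 libraries.
Kdm6a, chrX:18162325-18162624, plus strand, 21 CG: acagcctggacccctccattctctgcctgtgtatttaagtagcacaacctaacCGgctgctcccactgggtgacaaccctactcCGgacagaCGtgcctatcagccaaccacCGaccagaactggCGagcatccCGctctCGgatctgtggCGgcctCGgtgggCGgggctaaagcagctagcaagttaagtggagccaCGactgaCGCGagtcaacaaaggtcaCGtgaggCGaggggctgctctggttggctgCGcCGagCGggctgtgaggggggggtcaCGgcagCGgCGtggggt
Eif2s3x, chrX:94212602-94212901, minus strand, 21 CG: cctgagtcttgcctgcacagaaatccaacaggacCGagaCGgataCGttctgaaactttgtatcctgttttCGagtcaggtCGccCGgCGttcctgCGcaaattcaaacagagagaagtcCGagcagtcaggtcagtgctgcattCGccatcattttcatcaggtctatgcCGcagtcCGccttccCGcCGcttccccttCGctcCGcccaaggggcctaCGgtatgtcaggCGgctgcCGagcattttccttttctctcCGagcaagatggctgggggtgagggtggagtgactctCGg
Ndufb11, chrX:20617570-20617869, minus strand, 14 CG: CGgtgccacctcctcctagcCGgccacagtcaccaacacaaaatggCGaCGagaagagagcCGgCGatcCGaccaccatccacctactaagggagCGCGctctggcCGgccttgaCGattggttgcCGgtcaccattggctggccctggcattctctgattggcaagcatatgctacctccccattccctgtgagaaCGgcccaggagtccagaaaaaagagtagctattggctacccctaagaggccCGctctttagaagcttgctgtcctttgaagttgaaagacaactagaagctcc
Syp, chrX:7638330-7638629, plus strand, 18 CG: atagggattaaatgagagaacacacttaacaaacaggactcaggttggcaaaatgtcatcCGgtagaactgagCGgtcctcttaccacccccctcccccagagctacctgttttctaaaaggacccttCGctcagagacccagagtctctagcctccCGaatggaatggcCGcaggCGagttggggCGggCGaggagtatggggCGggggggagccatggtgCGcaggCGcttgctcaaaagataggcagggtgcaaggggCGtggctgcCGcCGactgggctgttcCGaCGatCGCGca
Cnksr2, chrX:158043231-158043530, minus strand, 49 CG: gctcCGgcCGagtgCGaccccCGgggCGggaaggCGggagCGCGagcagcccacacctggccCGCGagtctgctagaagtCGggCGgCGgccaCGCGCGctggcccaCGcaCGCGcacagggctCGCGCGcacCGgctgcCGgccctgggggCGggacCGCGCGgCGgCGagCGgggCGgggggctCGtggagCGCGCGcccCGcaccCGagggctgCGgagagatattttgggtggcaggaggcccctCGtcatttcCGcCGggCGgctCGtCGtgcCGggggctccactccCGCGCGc
Slc9a7, chrX:20291778-20292077, minus strand, 24 CG: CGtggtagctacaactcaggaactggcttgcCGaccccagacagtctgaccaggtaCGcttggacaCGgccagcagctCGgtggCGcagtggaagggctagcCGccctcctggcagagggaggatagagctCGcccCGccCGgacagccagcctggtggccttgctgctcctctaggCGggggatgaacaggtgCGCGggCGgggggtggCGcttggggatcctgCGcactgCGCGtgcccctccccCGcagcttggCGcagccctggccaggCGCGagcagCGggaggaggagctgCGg

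The mark covered more of the member windows in del/del cells. Mean cover of the 778 windows reached 74.8% and 80.5% in del/del cells, against 51.4% and 57.5% in del/fl cells. That is 77.6% ± 4.07 for del/del and 54.4% ± 4.35 for del/fl (mean ± SD, n = 2 each). The difference was 23.2 points and the fold 1.43. The lowest del/del library lay above the highest del/fl library, and the gap between genotypes was larger than the spread within either. Over the 4 ways to set a del/del library against a del/fl library, the mean difference ran between 17.2 and 29.1 points.

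Single windows moved with the mean. In 749 of the 778 windows each del/del library exceeded each del/fl library, in 1 window both lay below, and the mean was lower in del/del in 7. Over all 13985 windows of the genome with a peak in any library, 15.7% had both del/del libraries higher, and nothing is read from the members' higher share because the rule used one side of this contrast. Windows at least 95% covered numbered 85 and 176 in del/del cells, against 0 and 8 in del/fl cells. Windows under 20% covered numbered 42 and 28 in del/del cells, against 126 and 103 in del/fl cells. The median window was 83.8% and 88.1% covered in del/del cells, against 57.7% and 65.4% in del/fl cells, so the bulk of the windows, and not a few extreme ones, carried the difference.

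**Figure D1:**
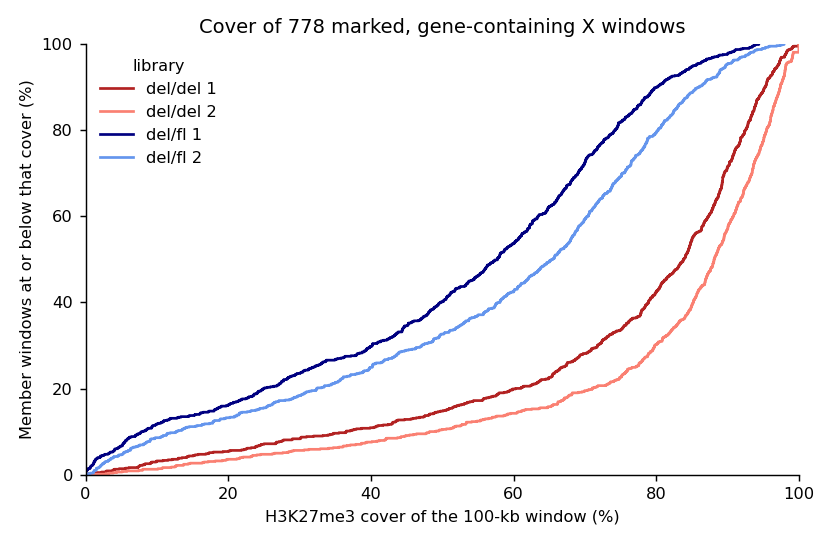
Share of the 778 member windows (y axis, %) at or below a given H3K27me3 cover (x axis, % of the window's bases in peaks), 1 line per library. The del/del lines lie to the right of the del/fl lines over most of the range, with medians of 83.8% and 88.1% in del/del cells, against 57.7% and 65.4% in del/fl cells.

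The cover was built from fewer and longer peaks. Per member window there were on average 11.8 and 9.38 peaks in del/del cells, against 17.2 and 16.2 in del/fl cells. Peaks touching the members averaged 6818 and 9610 bp in del/del cells, against 3104 and 3699 bp in del/fl cells. Those longer than a whole window numbered 11 and 46 in del/del and 0 in both del/fl libraries. The median fold enrichment of these peaks over the local background, the authors' own value per peak, was 3.67 and 3.46 in del/del cells, against 3.46 and 3.31 in del/fl cells, so a library of each genotype had nearly the same value.

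The 8 windows with the largest differences were 49.6 to 53.0 points more covered in del/del. The window of Cnksr2 at chrX:158000001-158100000 was 82.4% and 89.8% covered in del/del cells, against 28.4% and 37.8% in del/fl cells. That of Slc9a7 at chrX:20200001-20300000 was 66.5% and 78.5% covered in del/del cells, against 16.5% and 24.9% in del/fl cells. In both windows the gap between genotypes was several times the gap between libraries of 1 genotype. They were picked for the largest difference, so nothing is read from this. Next came windows over Clcn5, a chloride exchanger gene, with Usp27x, a deubiquitinase gene (50.8 points), over Mbtps2, a membrane protease gene, with Yy2 (50.8 points), and over Htr2c, the serotonin 2C receptor gene (50.5 points). A window wholly inside Dmd, the dystrophin gene, was 79.1% and 87.0% covered in del/del cells, against 29.5% and 35.8% in del/fl cells. A further window of Clcn5 (49.8 points) and 1 of the predicted gene Gm52436 (49.6 points) complete the set. Of the 8 windows, 6 hold 1 protein-coding gene and 2 hold 2. Among all 778 members 516 hold 1 and 167 hold 2, so nothing is read from the gene number of the 8.

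**Figure D2:**
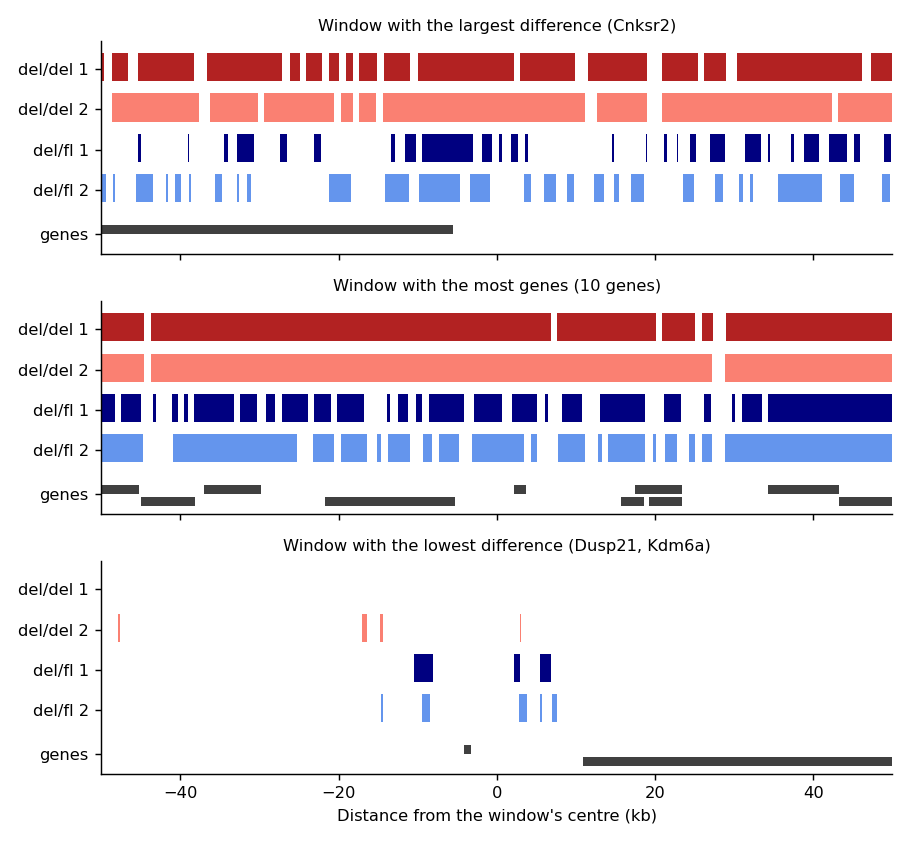
Deposited H3K27me3 peaks (coloured bars, 1 row per library) and protein-coding gene bodies (dark bars, staggered where several) by distance from the centre of the window (kb), in 3 member windows. Peaks nearly fill the Cnksr2 window and the 10-gene window in both del/del libraries and are broken up in both del/fl libraries, while the window of Dusp21 and Kdm6a holds few peaks in any library.

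Gene number was related to cover only weakly. Of the 778 windows, 516 overlap 1 protein-coding gene, 167 overlap 2, 75 overlap 3 or 4, and 20 overlap 5 or more, up to 10. Mean cover was 74.0% and 80.0% in del/del cells, against 50.5% and 56.1% in del/fl cells for windows with 1 gene, and 79.0% and 83.4% in del/del cells, against 55.9% and 63.8% in del/fl cells for windows with 3 or 4 genes. Windows with 5 or more genes had 72.8% and 77.7% in del/del cells, against 52.3% and 59.7% in del/fl cells. Mean cover was thus highest at 3 or 4 genes in every library, and classes differed by less than the genotypes did. The median window went the other way in del/fl cells, with 64.7% and 74.2% at 5 or more genes, against 62.3% and 70.7% at 3 or 4. In del/del cells the medians were 87.5% and 88.0% at 5 or more genes, against 88.0% and 91.3% at 3 or 4. Across the 778 windows Spearman's rho between gene number and cover was 0.089 and 0.083 in del/del cells, against 0.057 and 0.094 in del/fl cells. Windows of a library share its depth and often the same gene, so these coefficients are descriptions.

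The share of a window that lies in gene bodies tracked cover a little better than the number of genes. Its rho with cover was 0.168 and 0.195 in del/del cells, against 0.163 and 0.146 in del/fl cells. Windows with at least 75% of their bases in genes were 78.5% and 84.5% covered in del/del cells, against 55.6% and 60.8% in del/fl cells. Windows with under 25% in genes were 68.8% and 74.9% covered in del/del cells, against 45.1% and 51.3% in del/fl cells. The number of start sites in the window had a rho of -0.003 and -0.012 in del/del cells, against -0.017 and 0.011 in del/fl cells. In each library this was weaker than the rho of the share in gene bodies. Both are weak, and neither was adjusted for the other. Genes without a promoter entry have no start site in this count.

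The difference between genotypes was slightly smaller in windows with more genes. It was 23.7 points for 1 gene, 22.9 for 2 genes, 21.3 for 3 or 4, and 19.3 for 5 or more. The 2 genotypes did not overlap, with del/del higher, in 504 of 516, 152 of 167, 73 of 75 and 20 of 20 windows. The spread of the difference over windows within a class (SD 11.7 points for 1 gene and 8.47 for 5 or more) was larger than the step between classes. Windows with 5 or more genes minus windows with 1 gene came to -1.19 and -2.29 points of cover in del/del cells, against 1.82 and 3.60 points in del/fl cells. The libraries of the genotypes did not overlap in this contrast. Spearman's rho between gene number and difference was -0.066, and ran between -0.104 and -0.017 over the 4 pairs of libraries.

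**Figure D3:**
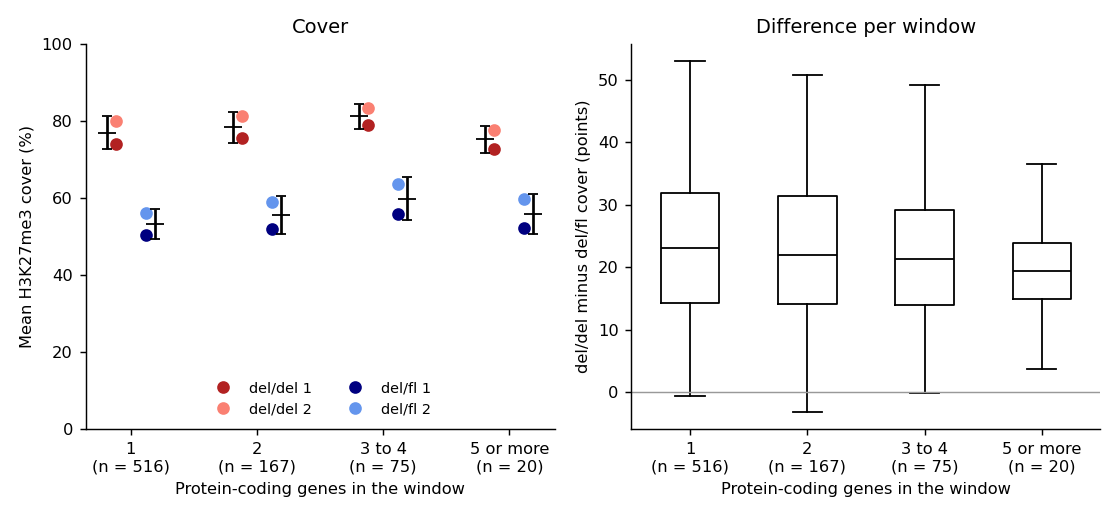
Left, mean H3K27me3 cover (%) of member windows by number of protein-coding genes, with a point per library and the mean ± SD of the 2 libraries of each genotype in black. Right, del/del minus del/fl cover (points) per window, as median, quartiles and full range. Cover differs more between genotypes than between classes, and the medians of the difference step down a little with gene number.

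How much a window differed followed how much of it was already covered. The difference was 24.9 points in the 116 windows with under 20% mean del/fl cover, 35.6 points in the 157 with 20 to 50%, and 18.9 points in the 505 with 50% or more. In the last class del/del cover was 88.0% and 91.4% and del/fl cover 67.5% and 74.0%. Whether the ceiling of 100% accounts for the smaller difference there was not tested. As a share of the bases that were bare in del/fl, del/del filled 27.1%, 55.8% and 64.7% in the 3 classes. Within them the rho between gene number and difference was -0.083, 0.002 and 0.031. The weak negative relation over all windows was therefore not seen where del/fl cover was 20% or more. On the scale of bare bases filled its sign turned, with a rho of 0.055. As del/fl cover is on both sides of the relation between cover and difference (rho -0.607), that coefficient is a description of the plot and no more.

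**Figure D4:**
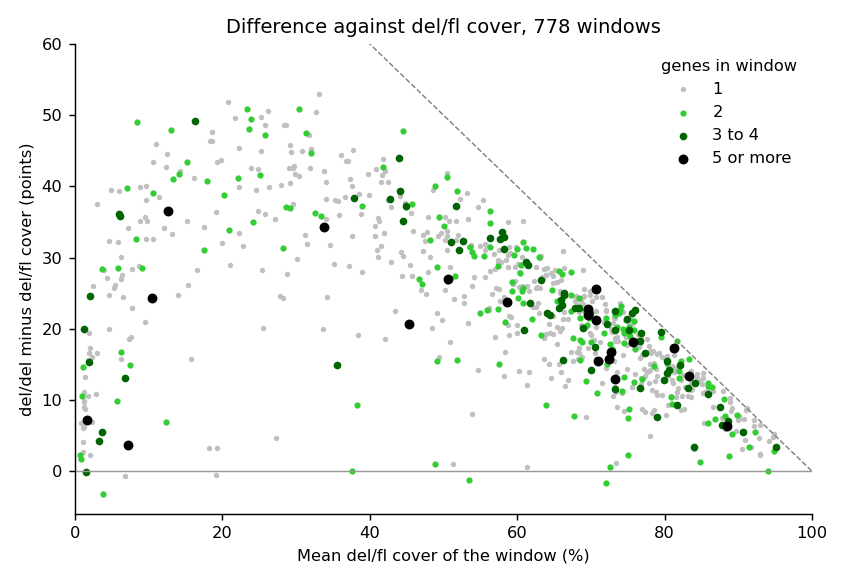
Difference between genotypes (y axis, points) against mean del/fl cover (x axis, %) for the 778 windows, coloured by number of protein-coding genes. The dashed line is the largest difference possible at each del/fl cover. Differences are largest between 20 and 50% del/fl cover, and windows with 5 or more genes (black) lie among the others.

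The 20 windows with 5 or more genes fall into a few gene clusters that behaved in different ways. The window with the most genes, 10, at chrX:74300001-74400000, holds Atp6ap1, a subunit of the proton pump of acidic organelles, Plxna3, an axon guidance receptor gene, and Fam50a among others. It was 94.9% and 97.4% covered in del/del cells, against 66.8% and 74.5% in del/fl cells. The window beside it at chrX:74200001-74300000 holds Flna, the filamin A gene of the cytoskeleton, Emd, the emerin gene of the nuclear envelope, Tktl1, Rpl10 and 3 more. It was 89.9% and 93.9% covered in del/del cells, against 62.6% and 78.8% in del/fl cells. The window at chrX:73700001-73800000 holds Bcap31, Plxnb3 and Srpk3 among others, and was 93.2% and 94.6% covered in del/del cells, against 70.4% and 81.2% in del/fl cells. In these 3 dense windows peaks nearly filled the sequence in del/del.

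A dense cluster near the start of X had low cover in both del/fl libraries. At chrX:7600001-7700000, with Ccdc22, Cacna1f, a calcium channel gene, Syp, Prickle3 and 3 more genes, cover was 42.9% and 55.4% in del/del cells, against 7.71% and 17.4% in del/fl cells, the largest difference among windows with 5 or more genes (36.6 points). At chrX:7800001-7900000, with Gripap1, Kcnd1, a potassium channel gene, Otud5, Pim2 and 3 more, cover was 3.89% and 13.7% in del/del cells, against 0.711% and 2.62% in del/fl cells. At chrX:7900001-8000000, which holds the starts of Hdac6, a cytoplasmic deacetylase gene, and Gata1, a blood transcription factor gene, cover was 7.44% and 14.4% in del/del cells, against 7.31% and 7.05% in del/fl cells. The window at chrX:7700001-7800000, with 6 genes, lay between the first and these, with 27.8% and 41.9% in del/del cells, against 6.44% and 14.6% in del/fl cells. In del/del cover was far lower at chrX:7800001-7900000 and chrX:7900001-8000000 than in the first window. The windows at chrX:7700001-7800000 and chrX:7900001-8000000 were named after their values were seen.

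Other dense windows lay between these or as high as the first 3. The window at chrX:37100001-37200000, with Upf3b, a factor of nonsense-mediated decay, Nkap, Akap14 and Ndufa1, a complex I subunit, and 1 more, was 59.9% and 76.2% covered in del/del cells, against 32.0% and 35.6% in del/fl cells. The window at chrX:136900001-137000000, with H2bfm, Tmsb15l, Tmsb15b2, Tmsb15b1 and 2 more, was 73.4% and 81.9% covered in del/del cells, against 44.4% and 57.0% in del/fl cells. The 9 H2al1 histone variant genes of chrX:11300001-11400000 had 95.5% and 98.0% cover in del/del cells, against 79.6% and 87.1% in del/fl cells. The H2al1, Tmsb15, Rhox and Xlr genes are families of similar copies, so reads may have been split or lost among them and their values are uncertain.

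Gene-free windows marked by the same rule served as the comparison for the genes. There were 445, with a mean cover of 54.7% and 63.2% in del/del cells, against 31.0% and 36.2% in del/fl cells. Windows with genes were therefore more covered than windows without, by 20.1 and 17.3 points in del/del cells, against 20.4 and 21.3 points in del/fl cells. The difference between genotypes was 23.2 points with genes and 25.3 points without, and the contrast of the 2 differences was -2.15 points. The genotypes did not overlap in this contrast, but the spread between the del/del libraries (SD 1.95 points) was about as large as the contrast. It came to -0.776 points without del/del replicate 2 and to -3.53 points without del/del replicate 1. With both kinds of windows chosen on del/del cover in place of del/fl cover it was 0.438 points, so its sign depended on that choice. Within classes of del/fl cover the excess of gene windows was small. It was 1.17 and 0.257 points in del/del cells, against 0.598 and 0.664 in del/fl cells where del/fl cover was under 20%. It was 1.43 and 1.37 points in del/del cells, against -0.433 and 0.358 in del/fl cells where del/fl cover was 20 to 50%. It was 4.14 and 3.85 points in del/del cells, against 5.24 and 5.04 in del/fl cells where it was 50% or more. Of the 445 gene-free windows, 432 had both del/del libraries higher.

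Whether windows with or without genes differed more between genotypes depended on how strong a peak had to be. With peaks of −log10 q of at least 3, the caller's significance per peak as deposited, windows with genes were 62.9% and 62.4% covered in del/del cells, against 17.2% and 13.4% in del/fl cells. Marked gene-free windows at that threshold were 36.6% and 34.4% covered in del/del cells, against 6.89% and 4.01% in del/fl cells. The difference was then 47.3 points with genes and 30.03 points without, so that the contrast was 17.3 points and opposite in sign to that of the full lists. With a −log10 q of at least 5, mean cover of the members was 6.60% and 4.48% in del/del cells, against 0.872% and 0.870% in del/fl cells, because 4.06% and 2.54% of their peaks in del/del cells, against 0.853% and 0.653% in del/fl cells passed. The median −log10 q of peaks in the members was 2.97 and 2.54 in del/del cells, against 2.29 and 2.00 in del/fl cells. With a −log10 q of at least 10, cover was 0.304% and 0.225% in del/del cells, against 0.0548% and 0.140% in del/fl cells. The direction del/del over del/fl held at each threshold, and the size of the difference, 0.167 to 47.3 points, did not.

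Inside the member windows the bodies of protein-coding genes were more covered, in the full lists, than the bases between them. Gene bodies make up 42.3 Mb and other bases 35.5 Mb. Gene bodies were 78.7% and 84.2% covered in del/del cells, against 56.0% and 61.8% in del/fl cells, and the other bases 70.1% and 76.1% in del/del cells, against 45.9% and 52.4% in del/fl cells. The excess inside genes was 8.62 and 8.13 points in del/del cells, against 10.1 and 9.36 points in del/fl cells, a contrast of -1.37 points whose libraries did not overlap between genotypes (exact two-sided permutation test p = 0.333, the lowest p of a 2 against 2 design). With members chosen on del/del cover the contrast was -0.0041 points, and with peaks of −log10 q of at least 2 it was -0.183 points. No conclusion is drawn from the test, since the contrast depended on the member rule and on the peaks counted. In the full lists the difference between genotypes was 22.6 points inside and 23.9 points outside genes. In windows with 5 or more genes the sign was the other way in all 4 libraries, with gene bodies minus other bases at -3.23 and -3.24 points in del/del cells, against -3.54 and -3.26 points in del/fl cells. With peaks of −log10 q of at least 3 the excess inside genes was 10.3 and 10.4 points in del/del cells, against 4.04 and 2.07 in del/fl cells, so the direction of this contrast turned as well (7.29 points, exact two-sided permutation test p = 0.333). At 5, gene bodies minus other bases came to -1.37 and -1.70 points in del/del cells, against 0.008 and -0.171 in del/fl cells (contrast -1.46 points). The excess inside genes was thus lost at that threshold, where little of the members was covered.

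Start sites were the best covered places. The RefSeq table places 705 start sites of protein-coding genes in the members. Within the first 2.5 kb downstream, mean cover was 81.9% and 85.5% in del/del cells, against 59.7% and 69.6% in del/fl cells. At 47.5 to 50 kb upstream it was 71.8% and 78.8% in del/del cells, against 48.7% and 56.3% in del/fl cells. A peak of cover at the start was present in each library. Starts with all bases within 2.5 kb in peaks numbered 394 and 443 in del/del cells, against 158 and 242 in del/fl cells, and starts with no peak there numbered 30 and 18 in del/del cells, against 76 and 54 in del/fl cells.

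**Figure D5:**
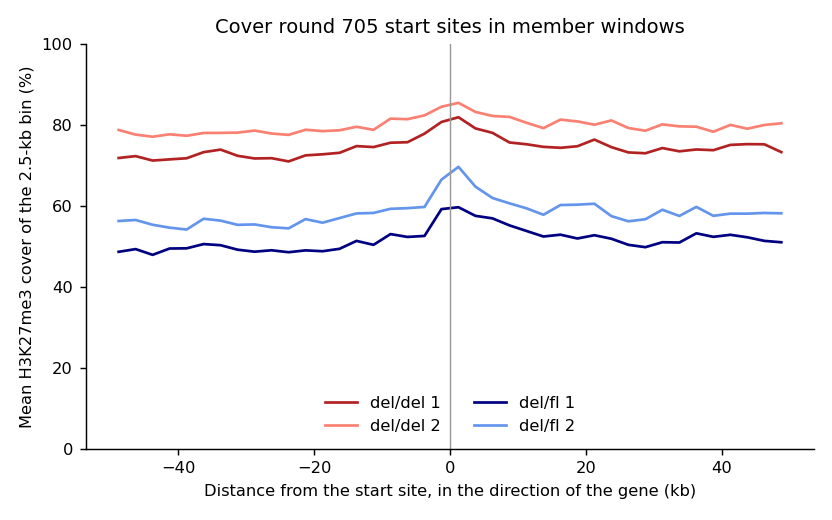
Mean H3K27me3 cover (%) in bins of 2.5 kb by distance from 705 RefSeq start sites of protein-coding genes in member windows (kb, positive into the gene), 1 line per library. Every line is highest at the start, and the del/del lines stay above the del/fl lines over the 50 kb to each side.

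A few starts stood apart from this pattern. At 16 starts no library had a peak within 2.5 kb. They include the escape genes Kdm6a, Eif2s3x and Ddx3x, an RNA helicase gene, and Hdac6, Gpkow, Pqbp1, Timm17b, a mitochondrial import gene, and Ftsj1, an RNA methyltransferase gene, the last 5 of which start near the beginning of X in windows under 20% covered in both del/fl libraries. At 23 starts both del/del libraries and neither del/fl library had a peak, and at 0 starts the reverse. Of the 689 member starts with a peak in any library the 23 are 3.34%, against 3.95% of such starts on the whole X and 1.89% of the 4029 on all chromosomes, where the reverse held for 2.13%. Nothing is read from these shares because the rule used del/fl cover. Among the 23 are Ndufb11 and Rbm10, an RNA splicing regulator gene that starts beside it on the other strand, with 67.0% and 100% in del/del and 0% in both del/fl libraries. Syp had 45.7% and 81.5% in del/del and 0% in both del/fl libraries, while Uba1, the ubiquitin-activating enzyme gene, had 6.62% and 3.84% in del/del and 0% in both. These genes were named after their values were seen.

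The CG content of the promoter, counted as in the sequences above, differed between these groups without a single order. The median promoter held 14 CG in the 16 bare starts, 8 in the 23 starts covered in del/del only, 14 in the 117 starts fully covered in all 4 libraries, and 9 over all 705. Of the 16 bare starts 68.8% held 10 or more CG, against 60.7% of the 117 fully covered starts and 49.1% of all 705. Bare starts made up 0.493% of those with 0 to 4 CG and 3.18% of those with 20 or more. Mean cover within 2.5 kb was higher at the highest than at the lowest CG counts in each library. It was 80.0% and 84.2% in del/del cells, against 56.5% and 64.0% in del/fl cells for promoters with 0 to 4 CG. It was 83.7% and 86.9% in del/del cells, against 65.5% and 74.6% in del/fl cells for promoters with 20 or more. The difference was 21.9 points at the low end and 15.2 at the high end, where del/fl cover was already higher.

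Gene bodies were then read by role, for 808 protein-coding genes that overlap the members. In 560 of them (69.3%) each del/del library exceeded each del/fl library, and in 1 both lay below. Over all 6187 protein-coding genes of the genome with a peak, 15.1% had both higher. The 1 gene lower in del/del was Eda2r, a receptor gene of the tumour necrosis factor family, with 31.6% and 52.7% in del/del cells, against 64.3% and 61.8% in del/fl cells. Long genes separated more often than short ones. Both del/del libraries were higher in 125 of 303 genes under 10 kb and in 42 of 44 genes of 200 kb or more, although the mean difference was 20.2 and 20.8 points.

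Escape genes were the list with the least change. Of 11 escape genes 10 were found, all 10 in members, and 3 had both del/del libraries higher, with a median difference of 0.66 points against 17.4 points over all 808 genes. Kdm6a, Kdm5c, another histone demethylase gene, Ddx3x, Eif2s3x and Pbdc1 had no peak anywhere in their bodies in any library. The 3 with a difference were Shroom4, an actin-binding protein gene (48.6% and 64.2% in del/del cells, against 10.3% and 16.9% in del/fl cells), Car5b, a mitochondrial carbonic anhydrase gene (91.7% and 90.8% in del/del cells, against 59.1% and 59.5% in del/fl cells), and Bgn, which encodes a matrix proteoglycan (98.8% and 90.2% in del/del cells, against 68.1% and 87.1% in del/fl cells). Eif2s3x lies in a window that was 68.9% and 77.6% covered in del/del cells, against 72.0% and 73.2% in del/fl cells, so a window's value can hide a gene without the mark.

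Housekeeping genes were mostly well covered. All 30 lay in members, 17 had both del/del libraries higher, and the median difference was 15.5 points. Ndufb11 was 85.2% and 100% covered in del/del and 0% in both del/fl libraries, the largest difference of all 808 genes (92.6 points). Rpl36a, a ribosomal protein gene, was 100% covered in both del/del libraries and 11.6% and 31.2% in del/fl. Eif1ax, a translation initiation factor gene, was 94.0% and 100% covered in del/del cells, against 42.0% and 39.1% in del/fl cells. Pgk1, the phosphoglycerate kinase gene of glycolysis, was 87.6% and 100% covered in del/del cells, against 19.1% and 57.8% in del/fl cells, and Hprt, of purine salvage, 80.5% and 84.5% in del/del cells, against 38.2% and 48.2% in del/fl cells. The 2 del/fl libraries lay far apart for Pgk1.

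Genes of brain development and neuronal function had both del/del libraries higher in 31 of 36, with a median difference of 20.7 points. Syp was 47.3% and 48.7% covered in del/del and 0% in both del/fl libraries. Htr2c was 69.8% and 84.1% covered in del/del cells, against 32.4% and 31.5% in del/fl cells, and Syn1, the synapsin I gene, 39.5% and 60.8% in del/del cells, against 5.74% and 6.21% in del/fl cells. Dmd, over its 2390387 bp, was 76.3% and 85.8% covered in del/del cells, against 49.1% and 51.7% in del/fl cells.

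Gene families of the germ line and placenta had 83 of 99 members in the windows, and 48 had both del/del libraries higher, with a median difference of 15.3 points. Rhox2a, a homeobox gene of the reproductive tract cluster, was 99.9% and 99.6% covered in del/del cells, against 38.6% and 20.1% in del/fl cells. Tex13c3 was 43.4% and 100% covered in del/del and 0% in both del/fl libraries. Rhox3e and Rhox2d were 100% covered in both del/del libraries, and in del/fl 26.0% and 76.4% for Rhox3e and 30.1% and 80.5% for Rhox2d. The other 16 members of these families, mainly Ssx and Mageb genes, lay in windows under the threshold. The medians of the 3 lists other than escape genes, 15.3 to 20.7 points, lay on either side of the 17.4 points of all 808 genes. In the housekeeping, brain and germ line lists both del/del libraries were higher in 56.7%, 86.1% and 57.8% of genes, against 69.3% of all 808. These shares were not adjusted for gene length.

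Of the 6 windows with the lowest differences, 4 hold a gene of the escape list (Kdm6a, Pbdc1 or Mid1) and 1 lies near Xist. The lowest was that of Dusp21 and Kdm6a at chrX:18100001-18200000, with 0% and 1.31% cover in del/del cells, against 4.55% and 3.13% in del/fl cells, the 1 member where both del/del libraries lay below. The windows of Pbdc1 with Magee1 and of Pbdc1 alone had 69.2% and 71.6%, and 17.4% and 19.9%, in del/del, and 68.2% and 76.0%, and 17.3% and 20.9%, in del/fl. The window at the end of Mid1, a ubiquitin ligase gene at the edge of the pseudoautosomal region, had 4.72% and 7.48% in del/del cells, against 6.09% and 7.50% in del/fl cells. That of Porcn, a Wnt acylation enzyme gene, Ftsj1 and Slc38a5 had 0% and 2.84% in del/del cells, against 0.996% and 2.07% in del/fl cells. Kdm5c shares a window with Iqsec2 that had 36.5% and 38.7% in del/del cells, against 36.2% and 39.1% in del/fl cells. Apart from the first, libraries of the genotypes overlapped in each of these windows, at low and at high cover.

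The members within 1 Mb of Xist (103460373 to 103483233) were looked at after the low difference near it was seen. The 20 members there had 84.0% and 88.5% mean cover in del/del cells, against 75.04% and 78.3% in del/fl cells, a difference of 9.55 points, against 23.5 points in the other 758. Both del/del libraries were higher in 16 of the 20, against 733 of the other 758 members and 15.7% of all windows with a peak. Mean del/fl cover of the 20 was 76.7%, against 53.9% in the other 758. The 505 members with 50% or more del/fl cover, a class not matched to the 20 in cover, differed by 18.9 points. Whether del/fl cover accounts for the smaller difference near Xist was not tested. The window of Chic1 and Tsx had 48.1% and 51.6% in del/del cells, against 47.8% and 49.8% in del/fl cells.

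At the other end, the members with the highest del/fl cover had almost no room left. They held Hsd17b10, a mitochondrial dehydrogenase gene, with Ribc1 and Smc1a, a cohesin gene, then Fam90a1b with Apoo, then Mbnl3, a splicing factor gene, and Tmem28. Their cover was 97.5% to 100% in del/del and 91.8% to 97.9% in del/fl. Just inside the threshold lay windows of Mageb16 with Gm52435, Satl1 with 2010106E10Rik, and Fthl17e, Fthl17-ps1 and Fthl17f. Their del/fl cover reached 1.11%, 1.12% and 1.15%, with means of 11.5%, 15.7% and 21.1% in del/del. Just outside lay windows of Ssxb5 with Gm6592 and Gm5751, of Glod5 with Suv39h1 and Was, and of Dach2. Their del/fl cover reached 0.997%, 0.927% and 0.903%, with means of 7.51%, 4.06% and 10.2% in del/del. The 156 X windows with genes that the threshold left out had 0.503% and 1.34% mean cover in del/del cells, against 0.0419% and 0.0786% in del/fl cells.

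Along X the difference was present in every stretch of 20 Mb. It was 28.1 and 29.9 points over the first 40 Mb, where members were least covered in del/fl (25.4% and 32.1%, then 30.2% and 38.0%), and 18.96 to 28.8 points over the rest. Members held a mean of 1.14 to 2.20 genes per window in these stretches, and the stretches with the most and with the fewest genes per window differed by 29.9 and 23.5 points.

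limma was fitted on the percent covered over all 13985 windows with a peak. At an adjusted p of 0.05 it called 554 of the 778 members higher in del/del and 0 lower, where it called 7.04% of all windows higher. At an unadjusted p under 0.05 it had 680 higher and 1 lower. By gene number the calls were 372 of 516, 117 of 167, 51 of 75 and 14 of 20 windows, so between 68.0% and 72.1% in each class. Because the rule used the del/fl side of this contrast, these counts are descriptions and nothing is read from them. These calls rest on sharing variances along the mean of the windows: without that trend 1 member was called. They also rest on all 4 libraries, since 74 members were called without del/del replicate 1, 0 without del/del replicate 2, 46 without del/fl replicate 1 and 0 without del/fl replicate 2.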

How the data were processed

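H3K27me3 chromatin immunoprecipitation was analysed in 2 del/del and 2 del/fl libraries, each called against its own whole-cell extract library; those 4 extract samples entered only as controls. Per the submitters' processing notes, bcl2fastq made the reads and Bowtie 0.12.9 and the mm10 build were used. Broad peaks were called per library with MACS2 2.1.0.20140616, per the file headers, with a q cutoff of 0.05 (listed broad peaks reach a q of 0.0983), 1 read kept per position, the larger of each pair down-sampled and local background over 1000 and 10000 bp. The deposited lists give start and end, a pileup signal, a ratio of pileup to background (fold enrichment), and −log10 of the p-value and q-value, all made by the authors' caller. One q belongs to a whole peak and depends on read depth. Peaks were not split by parental allele.

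From these lists, bases in peaks were counted per window, gene body and start site in Python 3.11.15 (scipy 1.17.1, pandas 2.3.3, numpy 2.4.6; figures with matplotlib 3.10.9). A gene belonged to a window if they shared at least 1 bp. Genes and promoters came from RefSeq (GRCm38.p6); 817 of 966 X-linked protein-coding genes had a promoter entry. limma 3.58.1 in R 4.3.3 was fitted on all windows with a peak, with robust fitting, a trend of variance on mean cover and p-values adjusted after Benjamini and Hochberg. The interval code and limma were tested on simulated data. The split of cover by gene body was tested per library with an exact two-sided permutation test, which cannot go below 0.333 with 2 against 2 libraries. The contrast with gene-free windows was planned as a test and is given as a description, since the rule used del/fl cover. Libraries shared no identical intervals.

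The members, gene lists and naming rule were chosen with earlier results of these data known. The rule named the 8 windows with the largest and the 6 with the lowest difference, the 6 with the most genes, 4 dense and 3 single-gene windows, 4 of highest cover, those around the threshold, and 4 genes per list. Alternatives were other peak thresholds, windows, member rules, gene counts, scales and left-out libraries. Allele-specific signal was not analysed here. Some genes and windows that the rule named are not reported here.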

Additional observations from a re-analysis of the deposited data

How the results depend on the processing

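The higher mean cover in del/del kept its sign in every alternative run, and moved most with the peaks counted. The difference of 23.2 points was 29.8, 47.3, 4.67 and 0.167 points with peaks of −log10 q of at least 2, 3, 5 and 10 (2, 3 and 10 were added after the data were seen), and 20.1 to 26.3 points when a library was left out. At 5, 93 members had both del/del libraries higher and limma called 25. With windows of 200 kb the count was 438, as there are fewer windows. limma's 554 calls fell to 1 without the variance trend and ranged between 0 and 74 when a library was left out, where a lone library is taken to vary like the others; those fits called 0 members lower and had 70 to 440 members higher at an unadjusted p under 0.05. The genotype difference of gene windows minus that of gene-free windows (-2.15 points) turned to 1.40, 17.3 and 3.23 points at thresholds of 2, 3 and 5. It turned to 0.438 with members chosen on del/del cover, and to 12.7 points of bare bases filled. It kept its sign at -0.319 scaled to autosomal cover and at -0.776 to -3.53 when a library was left out. The genotype difference of gene bodies minus that of other bases (-1.37 points) turned to 7.29 at 3. It came to -0.183 at 2, to -1.46 at 5 and to -0.0041 with members chosen on del/del cover. The cause of these turns was not tested. Gene number against cover in del/del (rho 0.087) was 0.047 with genes counted by midpoint, 0.098 without predicted symbols, 0.103 with a 5% threshold, 0.0997 with members chosen on del/del cover, 0.075 and 0.095 at 3 and 5, 0.151 in windows of 200 kb, 0.122 in shifted windows, and 0.083 to 0.089 with a library left out. In del/fl (0.076) it was 0.047 and 0.049 at 3 and 5, 0.136 in windows of 200 kb and 0.104 in shifted ones. Gene number against the difference (-0.066) was -0.123 by midpoint, 0.038 and 0.057 at 3 and 5, 0.055 for bare bases filled, and 0.0024 and 0.031 within del/fl cover of 20 to 50% and of 50% or more. Deviations of same-numbered libraries were correlated across all windows (r 0.443) and not across members (-0.028). Yet mean cover of the members was higher in number 2 of each genotype (80.5% against 74.8% in del/del, 57.5% against 51.4% in del/fl). Whether the numbers mark pairs is not settled. With a replicate block limma called 670 members, and the mean difference (23.2), the gene window contrast (-2.15) and the gene body contrast (-1.37) are the same by construction; the gene window contrast was -0.298 within number 1 and -4.01 within number 2. The number of libraries, 2 per genotype, limits every test.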

Other observations

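Among member windows with 1 protein-coding gene, the 289 that the RefSeq table gives no start site were better covered than the 227 with one. Windows without a start site were 76.6% and 82.5% covered in del/del cells, against 52.6% and 58.1% in del/fl cells. Windows with a start site were 70.7% and 76.7% covered in del/del cells, against 47.7% and 53.5% in del/fl cells. Every library showed this order. The contrast, windows without minus windows with a start site, was 5.90 and 5.74 points in del/del cells, against 4.88 and 4.64 points in del/fl cells. The genotypes did not overlap in it (difference 1.06 points). It is a description, since both kinds of windows were chosen on del/fl cover.

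Genes of long noncoding RNA were also related to cover only weakly. Across the 778 windows the rho of their number with cover was 0.065 and 0.051 in del/del cells, against 0.071 and 0.087 in del/fl cells. With the difference between genotypes it was -0.109. For pseudogenes the rho with cover was -0.052 and -0.065 in del/del cells, against -0.021 and -0.031 in del/fl cells, and with the difference it was -0.0089. Windows share libraries and neighbours, so these coefficients are descriptions.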
